A study of Homo sapiens with 6 samples.

Results

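Positions outside every annotated gene are cross-link positions of eIF4B that the deposited tables assign to no gene and that also lie in no gene span of GENCODE release 44 on the same strand. Positions on chromosome MT were left out. DoHH-2 had 73732 such positions of 1179243 in all, and GM01953 had 6904 of 78474. The 2 cell lines together had 78790 distinct positions, of 1231859. eIF4B iCLIP was carried out with an antibody to eIF4B in DoHH-2, a diffuse large B-cell lymphoma (DLBCL) cell line, and in GM01953, a B-cell line that served as the non-cancerous control. No treatment, transgene or allele is given for either line. The labels list 4 replicates for DoHH2, as they spell it, and 2 for GM01953, but each line has 1 table of pooled counts. The spread between replicates is therefore unknown, and the cell lines could not be tested against each other. Each group is 1 cell line, so the disease state and any other property of the line cannot be told apart.

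eIF4B is a translation initiation factor that stimulates the helicase eIF4A on the leader of an mRNA. In iCLIP, ultraviolet light joins the protein to the RNA it touches, and reverse transcription stops at the joined nucleotide, so that the cDNA starts beside it. Reads that fall outside annotated genes can come from small non-coding RNAs that the annotation leaves out, from RNAs whose sequence is repeated elsewhere in the genome, or from transcripts that run past a gene end or on the opposite strand. Nuclear tRNA genes are of the first kind, since GENCODE release 44 does not list them as genes.

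The sequences below belong to the highest clusters of cross-link positions and to the differences described after them. The first set is 6 tRNA genes, shown because 5 of them hold the highest tRNA clusters of either cell line and TRK-TTT6-1 has the largest ratio of GM01953 to DoHH-2 among genes with 20 or more counts and counts in both lines. They are read from the GRCh38 genome with RefSeq coordinates, with the anticodon in capitals. The gene for asparagine TRN-GTT2-7 lies at chr1:145287766-145287839 on the plus strand and the gene for glycine TRG-CCC2-2 at chr16:636736-636806 on the minus strand. The glutamate gene TRE-TTC2-1 lies at chr13:44917927-44917998 and the valine gene TRV-TAC2-1 at chr11:59550987-59551059, both on the minus strand. The cysteine gene TRC-GCA2-2 lies at chr17:38867645-38867716 on the plus strand and the lysine gene TRK-TTT6-1 at chr6:27334990-27335062 on the minus strand.
TRN-GTT2-7: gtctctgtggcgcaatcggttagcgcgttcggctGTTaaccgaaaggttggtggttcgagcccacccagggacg
TRG-CCC2-2: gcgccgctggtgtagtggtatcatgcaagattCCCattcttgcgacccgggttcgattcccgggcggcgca
TRE-TTC2-1: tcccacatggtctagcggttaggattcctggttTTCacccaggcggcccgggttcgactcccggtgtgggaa
TRV-TAC2-1: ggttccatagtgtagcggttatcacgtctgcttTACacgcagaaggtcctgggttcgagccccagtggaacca
TRC-GCA2-2: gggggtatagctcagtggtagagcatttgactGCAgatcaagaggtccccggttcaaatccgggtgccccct
TRK-TTT6-1: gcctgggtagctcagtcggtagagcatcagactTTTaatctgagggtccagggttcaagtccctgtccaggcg

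The second set is the 4 runs of A among the 10 highest clusters of GM01953, shown because each is an uninterrupted run. The stretch after the run differs between them but holds CGG near its start in all 4. The capitals mark the first 12 bases after the run. All 4 are on the minus strand, at chr4:89218092-89218153, chr5:158021456-158021515, chr16:21774970-21775028 and chr20:45277358-45277408 of GRCh38.
chr4 run: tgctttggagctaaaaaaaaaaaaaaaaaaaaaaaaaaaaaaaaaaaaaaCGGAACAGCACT
chr5 run: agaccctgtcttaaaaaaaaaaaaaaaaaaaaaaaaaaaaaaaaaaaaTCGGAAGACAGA
chr16 run: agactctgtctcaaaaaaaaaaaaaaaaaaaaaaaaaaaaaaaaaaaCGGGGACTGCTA
chr20 run: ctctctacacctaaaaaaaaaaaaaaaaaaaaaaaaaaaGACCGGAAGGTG

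The third set is 4 sites of ribosomal RNA sequence, shown because they are among the 10 highest clusters of DoHH-2. The capital marks the cross-link position with the highest count. Both sites of the unplaced contig KI270442.1 and the site of chromosome 20 hold 18S sequence, and the site of chromosome 19 holds 28S sequence. They lie on the minus strand at KI270442.1:219641-219700, KI270442.1:218866-218925, chr20:29299545-29299604 and chr19:24003000-24003059 of GRCh38.
Contig, 18S base 643: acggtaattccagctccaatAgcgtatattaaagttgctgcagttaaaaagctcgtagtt
Contig, 18S base 1418: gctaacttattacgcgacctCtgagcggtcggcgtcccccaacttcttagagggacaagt
Chromosome 20, 18S base 573: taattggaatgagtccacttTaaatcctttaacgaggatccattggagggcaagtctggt
Chromosome 19, 28S base 370: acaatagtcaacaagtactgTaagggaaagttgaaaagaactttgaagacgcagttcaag

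The last set is 2 sites outside tRNA genes whose sequence, read on the cross-linked strand, holds the last 12 bases of a tRNA gene directly followed by CCA. CCA is the end that cells add to a tRNA after transcription, and it is not encoded in the tRNA genes. The capitals mark those 15 bases. At the chr1 site they lie after the cross-link position with the highest count, and at the chr2 site before it. The sites lie at chr1:171600910-171600971 on the minus strand, where the end is that of glutamate tRNA genes, and at chr2:166743607-166743668 on the plus strand, where it is that of arginine tRNA genes.
chr1 site: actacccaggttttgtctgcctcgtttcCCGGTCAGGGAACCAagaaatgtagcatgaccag
chr2 site: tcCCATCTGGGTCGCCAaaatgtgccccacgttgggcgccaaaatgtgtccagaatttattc

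The positions outside genes held 110974 cDNA counts in DoHH-2, which were 5.46% of all counts (Wilson 95% interval 5.43 to 5.49). In GM01953 they held 18620 counts, or 11.1% (10.99 to 11.3). These intervals, and those that follow, cover counting error only. DoHH-2 had 12.2 times the cDNA counts of GM01953 over all positions but only 5.96 times its counts outside genes. Depth here means these counts, since numbers of reads are not given. At the depth of GM01953 the DoHH-2 table would be expected to hold 7546 positions outside genes, beside the 6904 seen in GM01953. Most positions had a single cDNA. Their share was 88.6% in DoHH-2 and 66.6% in GM01953, against 83.6% and 60.6% at positions assigned to a gene. Of the DoHH-2 positions, 8401 had 2 or more counts and 612 had 10 or more, with a highest count of 3082. Unplaced contigs, for which GENCODE gives no genes, held 424 of the DoHH-2 positions and 5911 counts, and 85 of the GM01953 positions and 255 counts.

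Each position was put into the first of 10 kinds of sequence that applied. tRNA genes held 9367 counts in DoHH-2, or 8.44% of the counts outside genes (8.28 to 8.61), and 4625 in GM01953, or 24.8% (24.2 to 25.5). Runs of at least 15 A in the 31 nt after the position held 16154 counts in DoHH-2, or 14.6% (14.4 to 14.8), and 6417 in GM01953, or 34.5% (33.8 to 35.1). Both kinds together made up 59.3% of the GM01953 counts and 23% of the DoHH-2 counts. The order was turned for ribosomal RNA sequence, with 7.60% of the DoHH-2 counts and 2.29% of the GM01953 counts.

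Copies of an annotated transcript, that is, positions whose next 31 nt also occur in a GENCODE transcript, held 7.66% of the DoHH-2 counts and 3.85% of the GM01953 counts. Positions within 1000 nt of a pseudogene held 4.93% and 2.57%, and those between the immunoglobulin genes 1.63% and 0.521%. Positions within 1000 nt downstream of another gene held 5.56% and 2.41%. Those antisense to a gene and of no earlier kind held 21.8% and 13.6%, and sequence shared with chromosome MT held 0.113% and 0.0591%. The remainder, with none of these features, held 27.7% and 15.4%.

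Relative to all counts of the line, tRNA genes had 4607 CPM (counts scaled to the same total in each line) in DoHH-2 and 27662 in GM01953, a 6.00-fold higher value in GM01953. Runs of A were 4.83-fold higher in GM01953. The remainder, with 1.14-fold, and the antisense positions, with 1.27-fold, were closer between the lines. Ribosomal RNA sequence was 1.63-fold higher in DoHH-2 with all clusters. Without its highest cluster it had 2241 CPM in DoHH-2 and 2249 in GM01953. These are differences between 2 pooled tables with no replicate check.

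tRNAs carry amino acids to the ribosome, and the 3 bases of the anticodon, numbered 34 to 36, pair with the codon. RefSeq lists 443 nuclear tRNA genes, and the strand of 391 could be read from their sequence. Of these, 100 lie inside a gene span on the same strand and are not described here. Among the other 291, 184 had counts in DoHH-2 and 169 in GM01953, with 142 in both. The tRNA genes cover 0.000517% of the bases outside genes, beside the 8.44% and 24.8% of counts given above. The counts lay within the genes. Within 50 nt of a tRNA gene, on either side, there were 133 DoHH-2 counts and 21 GM01953 counts.

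The anticodon loop, bases 32 to 38, held 76.3% of the tRNA counts in DoHH-2 (75.4 to 77.2) and 80.9% in GM01953 (79.8 to 82.0). The counts were highest at base 34, the first base of the anticodon, with 24.5% in DoHH-2 and 20.8% in GM01953, and at base 37, directly after the anticodon, with 21.6% and 30.5%. The intervals at base 37 were 20.8 to 22.4 in DoHH-2 and 29.2 to 31.8 in GM01953, which is no test between the lines. These pooled shares also depend on which genes held the counts. Within single genes the share at base 37 was close in some, with 82.6% and 82.4% in TRA-AGC1-1. It was not close in others, with 65.9% and 81.3% in TRR-CCG2-1. Base 35, between bases 34 and 37, held 6.30% and 5.56% of the tRNA counts. Outside the loop the highest base was 50, with 2.72% and 1.88%. Bases were counted along each gene from the anticodon, without adjustment for the length of the variable loop or for introns. Bases after an intron are therefore numbered too high.

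The 2 high bases came from different tRNA genes. Of 82 genes with 20 or more counts in both lines together and a placed anticodon, 17 had their highest count at base 34 and 29 at base 37. Another 7 had it at base 32, and 20 had it outside the loop. In the glutamate gene TRE-TTC2-1, base 34 held 405 of 590 DoHH-2 counts and 129 of 189 GM01953 counts, while base 37 held 4 and 0. In the phenylalanine gene TRF-GAA1-4, base 34 held 0 counts in both lines, and base 37 held 215 of 237 and 151 of 161. The valine gene TRV-CAC1-4 had 254 of 295 and 73 of 80 counts at base 34, and the alanine gene TRA-AGC1-1 had 280 of 339 and 108 of 131 at base 37. In the asparagine gene TRN-GTT2-7, whose sequence is given above, the counts spread over the loop, with 34.7% and 36.1% at base 34 and 22.3% and 26.6% at base 36. In the leucine gene TRL-TAG3-1 the highest base lay outside the loop, at 48, in both lines.

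The letter at the high base was also described. Base 37 is A in 140 of the 211 tRNA genes with counts and G in the other 71. Positions with G held 45.9% of the DoHH-2 counts at base 37 and 46.7% of those of GM01953, beside 33.6% of the genes. Base 34 is A in 41 genes, or 19.4%. Those genes held 2.53% of the base 34 counts in DoHH-2 and 5.40% in GM01953. Genes with T at base 34, 23.7% of the genes, held 33.3% and 42.1%. Genes with C, 28.9% of the genes, held 39.99% and 26.1%, and those with G, 27.96%, held 24.2% and 26.5%.

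By anticodon, the asparagine genes TRN-GTT held 1089 DoHH-2 counts and 436 GM01953 counts, the most in each line. Of the 45 anticodon families with counts, 44 had a higher CPM in GM01953. The exception was tryptophan, TRW-CCA, with 52 counts in DoHH-2 and 0 in GM01953, which allows a share of up to 0.0649% of the GM01953 tRNA counts. Within the tRNA counts, cysteine TRC-GCA made up 3.50% in DoHH-2 (3.15 to 3.89) and 9.32% in GM01953 (8.51 to 10.2). Lysine TRK-TTT made up 0.427% (0.314 to 0.581) and 3.09% (2.63 to 3.63). The gene TRK-TTT6-1 alone had 3 counts in DoHH-2 and 107 in GM01953, 93 of them at base 37. Proline TRP-TGG went the other way, with 5.03% (4.60 to 5.49) in DoHH-2 and 2.55% (2.13 to 3.05) in GM01953. Families share sequence between genes, and 58.6% of the tRNA counts in each line lay before 31 nt that occur more than once in the genome.

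Runs of A occur throughout the genome, many of them at the ends of retrotransposed copies. The space outside genes holds 288020 runs of 15 or more, and 4737 of them had counts in DoHH-2 and 1520 in GM01953. Runs with counts had a median length of 30 nt in DoHH-2 and 29 nt in GM01953, against 18 nt over all runs. The counts were more concentrated in GM01953, where 10 runs held 30.5% of them, than in DoHH-2, where 10 runs held 11.3%. The 4 runs printed above had 303, 265, 233 and 118 counts in DoHH-2 and 469, 320, 278 and 257 in GM01953, in the order chr4, chr5, chr16 and chr20. These 4 were chosen as the highest of GM01953. Some other high runs had nearly all their counts in DoHH-2. Examples lay on chromosome 15, with 179 and 3 counts, chromosome 7, with 160 and 0, and chromosome 12, with 154 and 10. Runs with more counts over both lines than these had many in each line. They had 136 and 167 on chromosome 6 and 96 and 134 on chromosome 8. Another run of chromosome 7 had 140 and 95, and a run of chromosome 9 had 131 and 71.

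The letters after the run differed from those of the genome. CGG followed 0.128% of all runs but 7.30% of the run counts in DoHH-2 (6.91 to 7.71) and 19.0% in GM01953 (18.1 to 20.01). The 5 highest of these runs held 74.6% of the DoHH-2 counts and 85.7% of the GM01953 counts with CGG, and by number of runs CGG followed 0.844% and 2.24%. CG anywhere in the next 3 letters was found at 1.04% of all runs, and with 13.4% and 29.8% of the counts. By number of runs the shares with CG were smaller too, at 3.69% of the runs with counts in DoHH-2 and 7.5% in GM01953. CAA, at 3.06% of all runs, followed 12.4% of the DoHH-2 counts and 2.04% of the GM01953 counts. GAA, the letters after 22.3% of all runs, followed 16.3% and 14.8%. The middle of the counts lay 36 nt before the end of the run in DoHH-2 and 32 nt before it in GM01953. How the aligner places reads within such runs was not tested.

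Ribosomal RNA is made from tandem genes on the short arms of several chromosomes, and partial copies lie elsewhere. Positions that shared 20 nt with ribosomal RNA on its transcribed strand held 8438 DoHH-2 counts and 426 GM01953 counts. The 18S RNA of the small subunit made up 6783 and 269 of these, and the 28S RNA of the large subunit 1455 and 148. In CPM the 18S RNA was higher in DoHH-2, with 3336 and 1609, and the 28S RNA was higher in GM01953, with 716 and 885. The highest cluster, a site of 18S sequence, alone had 1909 CPM in DoHH-2 and 299 in GM01953. The contig KI270442.1 alone held 61.3% of the DoHH-2 counts and 30.5% of the GM01953 counts. A single 18S base, 643, had 3094 DoHH-2 counts and 37 GM01953 counts, and base 1418 had 691 and 54. The highest 28S base, 370, had 325 and 0. The 31 nt after the highest position, 18S base 643 of the contig, occur 10 times in the reference. These 31 nt alone do not tell which copy gave the reads, and longer words of this site are not described here.

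Positions of both tables were joined within 50 nt on the same strand, which gave 54894 clusters with counts in DoHH-2 and 5249 in GM01953. A single cDNA made up 83.0% and 62.6% of them. Only 411 clusters in DoHH-2 and 113 in GM01953 had 20 or more counts, yet they held 30.4% (30.1 to 30.7) and 42.2% (41.5 to 42.9) of the counts outside genes. The 10 highest held 8.89% and 15.7%. In GM01953, 61 of the 113 were tRNA genes and 42 were runs of A. In DoHH-2, tRNA genes were 63 of the 411 and runs of A 115, and another 63 were copies of transcripts, 40 lay beside pseudogenes and 42 were antisense.

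The highest cluster in DoHH-2 was the 18S site at 219661 to 219817 of KI270442.1, with 3881 counts, against 50 in GM01953. It was followed by a second 18S site of the same contig, with 1107 and 75, and by the tRNA genes TRN-GTT2-7 with 1059 and 380, TRG-CCC2-2 with 854 and 300 and TRE-TTC2-1 with 591 and 189. The 18S site of chromosome 20 had 535 and 18 counts and the 28S site of chromosome 19 had 445 and 14. A cluster downstream of IGHJ6, the last joining segment of the immunoglobulin heavy chain, had 512 and 13. A cluster of 35 nt directly before PPIAP29, a pseudogene of the cyclophilin A gene, and antisense to RIPOR2 had 445 and 16. The last of the 10, antisense to C7orf50, had 434 counts over 2075 nt in DoHH-2 and 14 in GM01953.

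The highest cluster in GM01953 was the run of A on chromosome 4. Of the 10 highest, 4 were runs of A, 5 were tRNA genes and 1 was the glutamate tRNA end printed above. That site had 322 counts in GM01953 and 255 in DoHH-2, of which 320 and 250 stood at a single position, 171600951 of chromosome 1. It is antisense to MYOCOS and its following 31 nt occur once in the reference. The position on chromosome 2 had 82 counts in GM01953 and 40 in DoHH-2. There the arginine tRNA end lies before the position, so cDNAs that start after it do not hold that end. Such ends, before or after the position, were found outside tRNA genes at 18 positions with 460 counts in GM01953. In DoHH-2 they were found at 37 positions with 468 counts. The tRNA genes TRV-TAC2-1, with 221 counts in GM01953 and 274 in DoHH-2, and TRC-GCA2-2, with 182 and 86, completed the list.

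Clusters with 20 or more counts over both lines were set against each other by CPM, and called where they differed at least 2-fold. Among all 11228 such clusters of the tables, genes included, 18.4% were higher in GM01953 and 45.2% were higher in DoHH-2. Among the 501 outside genes, 205 (40.9%) were higher in GM01953 and 189 (37.7%) in DoHH-2. The calls towards DoHH-2 rested on low counts in GM01953. Of the 501 clusters, 328 reached 20 counts in DoHH-2 and not in GM01953, so that they passed through the deeper table. The calls towards GM01953 have a limit of the same sort. Only 411 of the 501 reached 20 counts in DoHH-2. Clusters well below 20 there passed only with their GM01953 counts, which by itself makes them higher in GM01953 by CPM. The floor used next does not remove this. With counts under 3 set to a floor of 3, 208 clusters were higher in GM01953 and 29 in DoHH-2, beside 19.0% and 7.19% of all clusters. The order of the 205 and 189 also turned without runs of A, to 115 in GM01953 and 137 in DoHH-2, and with a minimum of 10 counts, to 403 and 514.

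Of 84 clusters at tRNA genes, 75 were higher in GM01953 with and without the floor, and 61 of the 84 reached 20 counts in GM01953 itself. Of 163 runs of A, 90 were higher in GM01953, or 91 with the floor, and 52 were higher in DoHH-2, or 5 with the floor. Only 63 of the 84 tRNA clusters and 115 of the 163 runs of A reached 20 counts in DoHH-2. Part of the calls towards GM01953 therefore follows from the minimum itself. With the floor, ribosomal RNA sequence had 6 of 32 clusters higher in DoHH-2 and 3 higher in GM01953. Antisense positions had 8 and 10 of 48, and copies of transcripts 1 and 12 of 69. Of these clusters, 27, 41 and 61 reached 20 counts in DoHH-2 and not in GM01953. Over all clusters, genes included, 7.19% were higher in DoHH-2 and 19.0% in GM01953 with the floor. No test between the lines was possible.

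Exact positions were compared between the lines. GM01953 had only 6904 positions, so most of the 73732 DoHH-2 positions could not be shared. The lines had 1846 positions in common, which were 2.50% of those of DoHH-2 and 26.7% of those of GM01953, and these held 19.4% and 56.2% of the counts. For positions assigned to a gene the shares were 2.12% and 33.1%. In tRNA genes 379 positions were shared, and they held 89.2% of the DoHH-2 tRNA counts and 90.6% of those of GM01953. In the remainder 152 were shared, holding 1.12% and 18% of the counts.

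Sequence copy number set these positions apart from those in genes. The 31 nt after the position occur more than once in the reference for 35.8% of the counts outside genes in DoHH-2 (35.5 to 36.1) and for 49.6% in GM01953 (48.9 to 50.3). At positions assigned to a gene this share was 4.87% and 5.49%. More than 100 copies were found for 9.63% of the DoHH-2 counts and 21.6% of the GM01953 counts. With runs of A left out, 26.7% and 33.6% of the counts lay before repeated sequence. These shares changed with the length of the word. With 41 nt they fell to 13.6% in DoHH-2 and 5.54% in GM01953, which turns the order of the lines. By kind, the repeated share was 91.4% for copies of transcripts in DoHH-2, 70.3% for ribosomal RNA sequence and 88.8% for runs of A. It was 10.1% for the remainder and 7.28% for antisense positions.

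The letter at the position was T in 40.3% of the DoHH-2 positions outside genes and in 43.9% of those assigned to a gene. In GM01953 it was T in 33% and 40.0%. For the downstream, antisense and remaining positions as 1 set, without the tRNA, ribosomal RNA and A-run kinds, T stood at 42.4% of the DoHH-2 positions and 41.4% of the GM01953 positions.

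Copies of transcripts and pseudogene flanks held 12.6% of the DoHH-2 counts and 6.41% of the GM01953 counts. Processed pseudogenes are mRNA copies inserted into the genome, and the flanks can hold parts of the UTRs that the annotation leaves out. Among words matched to the transcripts of a single gene, the highest counts were for RPL17, a protein of the large ribosomal subunit, with 138 in DoHH-2 and 15 in GM01953. EIF4H, a cofactor of the eIF4A helicase, had 104 and 3, the actin-binding TMSB4X had 80 and 22, ACTB had 81 and 19 and the chromatin protein HMGB1 had 86 and 12. Within 1000 nt downstream of pseudogenes there were 7305 counts at 1210 pseudogenes in DoHH-2 and 625 at 231 in GM01953, and upstream there were 2399 and 206. The highest was PPIAP29, with 445 and 16 upstream. Downstream of RPL17P18 there were 219 and 29 counts, of HMGB1P10 137 and 12, and of PTMAP12 130 and 1.

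The other small RNAs held few counts. Sequence of 7SL, the RNA of the signal recognition particle, or of its pseudogenes and their flanks, held 1413 counts in DoHH-2 (1.27% of those outside genes) and 480 in GM01953 (2.58%). Alu repeats descend from 7SL, and they were not separated from it here. Spliceosomal snRNA names held 282 and 39 counts, Y RNAs 153 and 25, snoRNAs 28 and 1, 7SK 15 and 0, and RNase P or MRP 5 and 0. None lay at a vault RNA name.

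Counts were densest next to genes. Within 1 kb downstream of the nearest same-strand gene end lay 14.4% of the DoHH-2 counts on chromosomes 1 to 22, X and Y (14.2 to 14.6) and 9.07% of those of GM01953 (8.66 to 9.49), on 1.14% of the bases outside genes. Within 5 kb these were 29.8% and 18.5%, on 5.37% of the bases. Leaving out tRNA, ribosomal RNA, MT-like and A-run sequence, transcript copies, pseudogene flanks and immunoglobulin loci, the density in DoHH-2 fell from 197 counts per Mb in the first 100 nt to 119 up to 1 kb, 68.6 up to 5 kb, 35.1 up to 10 kb and 5.18 beyond 100 kb. In GM01953 it fell from 11.9 to 8.89, 5.31, 2.47 and 0.698. The first 100 nt were 38 times denser than the bases beyond 100 kb in DoHH-2 and 17.0 times denser in GM01953. Upstream of the nearest gene start the first 100 nt held 364 counts per Mb in DoHH-2 and 35.4 in GM01953, more than downstream. From there to 1000 nt it was 71.6 and 8.73.

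Of the single genes, IGHJ6 had the most counts within 5 kb downstream in DoHH-2, with 642, and 20 in GM01953. RNA5-8SP4, a 5.8S pseudogene next to 28S sequence, had 511 and 17. IGHA1, the constant region of the IgA1 heavy chain, had 372 and 8. TERT, the protein subunit of telomerase, had 303 and 9. For the others, the kind of sequence that held the most counts is given. It was tRNA genes behind ATP5PD (187 and 41), MIR4521 (160 and 75), TRIM7-AS1 (154 and 141), ENSG00000239327 (147 and 89) and the clock gene PER1 (83 and 44). It was runs of A behind RPL6P27 (199 and 44), RPL3P4 (148 and 31), ENSG00000237471 (140 and 95) and RPLP0P9 (2 and 33), and transcript copies behind RPL17P18 (229 and 45) and TMSB4XP8 (95 and 33).

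Replication-dependent histone genes are transcribed in S phase into mRNAs that end in a stem–loop. Within 1000 nt downstream of 24 such genes there were 365 counts in DoHH-2, of which 111 lay behind H3C1 and 74 behind H2AC4. In GM01953 there were 30 behind 8 genes. Upstream there were 704 counts at 33 genes in DoHH-2 and 43 at 12 in GM01953.

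On the strand opposite to a gene lay 39.9% of the DoHH-2 counts on chromosomes 1 to 22, X and Y (39.6 to 40.2) and 35.2% of those of GM01953 (34.5 to 35.9). The bases opposite to a gene make up 38.4% of the bases outside genes. Per base, antisense positions thus held 1.06 times the counts of the others in DoHH-2 and 0.871 times in GM01953. Among the downstream, antisense and remaining kinds alone, 43.4% (43.0 to 43.8) and 47.2% (45.9 to 48.5) of the counts were antisense, 1.23 and 1.43 times the density of the others. The glutamate tRNA end opposite to MYOCOS is among these counts. Without it the shares were 43.1% (42.8 to 43.5) and 44.1% (42.8 to 45.4), with overlapping intervals.

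C7orf50 had the most antisense counts in DoHH-2, with 1641 at 1248 positions, and 71 at 29 positions in GM01953. On its own strand its span held 896 and 61 counts. LINC01487, a long non-coding RNA gene, had 1015 and 3 antisense counts and 0 and 1 on its own strand. PICSAR, also a long non-coding RNA gene, had 362 and 8 against 10 and 0. GRIN1, a subunit of the NMDA receptor, had 259 and 9 against 2 and 1. In these 4 genes the DoHH-2 counts were spread, while in others they stood at a few positions. RIPOR2 had 445 and 20, led by the cluster before PPIAP29, LRCH3 had 259 and 47, led by transcript copies, and MYOCOS had 255 and 322 at 2 positions. tRNA genes were the leading kind opposite to ENSG00000287264 (278 and 221), LINC02453 (209 and 134), ENSG00000291338 (193 and 54), SCAND3 (67 and 78) and FCGR2A (52 and 61). Runs of A were the leading kind for DENND1A (136 and 74), PIWIL2 (98 and 134), ATP1A4 (23 and 55) and LINC02774 (19 and 67).

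Long stretches of positions were found by joining those within 1 kb of each other. Regions of at least 100 positions numbered 15. Nearly all of their positions came from DoHH-2, the deeper table, so the choice itself favours DoHH-2 and no fold between the lines is given. They held 13406 counts in DoHH-2, or 12.1% of those outside genes, and 330 in GM01953, or 1.77%. Ribosomal RNA sequence made up 2 of the 15, with 5049 and 130 counts on the contig KI270442.1 and 799 and 44 on chromosome 20. The longest ran over 64.8 kb of chromosome 3, from 155218026 to 155282872 on the minus strand. It began 7355 nt past the end of STRIT1 and was partly antisense to LINC01487. It had 2767 counts at 2272 positions in DoHH-2 and 26 at 10 positions in GM01953. No DoHH-2 position in it had more than 13 counts, 86.1% had 1, and 91.8% of its positions lie before 31 nt that occur once in the reference.

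In number of positions it was followed by a region that ran over 14.6 kb of chromosome 7, from 1004004 to 1018626 on the plus strand, antisense to C7orf50. It had 1545 counts in DoHH-2 and 66 in GM01953. The third ran over 17.2 kb of chromosome 5 and began at the first base past the end of TERT. It had 517 and 9 counts. The span of TERT itself had 1130 and 18 counts on the same strand. The fourth, on chromosome 21, ran over 19.1 kb antisense to PICSAR and beyond, with 485 and 8 counts.

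In the immunoglobulin heavy chain locus, 3 regions of chromosome 14 had at least 100 positions. One, from 105860433 to 105864046 on the minus strand, lies on both sides of IGHJ6 and had 643 counts in DoHH-2 and 22 in GM01953. A second, from 105697481 to 105703726, lies past IGHA1 and had 375 and 8. The last, from 105726946 to 105734000 on the plus strand, opposite to the orientation of the heavy chain genes, had 147 and 0. Further regions lay opposite to GRIN1 (252 and 9), past LINC01266 (239 and 4) and past ANO7 (186 and 1). A region of chromosome 20 partly opposite to the collagen gene COL9A3 had 169 counts in DoHH-2 and 0 in GM01953. The number of gene copies in either line was not measured.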

How the data were processed

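eIF4B iCLIP was carried out by the authors in DoHH-2 (labels DoHH2, 4 replicates) and GM01953 (2 replicates). They removed PCR duplicates with BBMap, demultiplexed with Je and mapped reads to GRCh38 with HISAT2, the build and tool also named in the submitters' processing notes, and iCount gave the cross-link positions. Versions and annotation release are not given in the sources used here. The deposited values are raw cDNA counts per position, 1 table of pooled replicates for each cell line. No column belongs to a single replicate. The totals were 2033156 counts for DoHH-2 and 167197 for GM01953.

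Positions listed for several genes were counted once. The deposited positions count from 0, as the letters on both strands showed, and 1 was added. Gene spans came from GENCODE release 44, which covers no unplaced contigs, and tRNA and ribosomal RNA genes from RefSeq, with the tRNA strand read from the sequence. Words of 31 nt after each position were counted over 3099750718 bases of the reference, both strands. Kinds of sequence were assigned in the order tRNA gene, ribosomal RNA (a shared word of 20 nt), chromosome MT, run of 15 or more A, transcript copy, immunoglobulin locus, within 1000 nt of a pseudogene, within 1000 nt downstream of a gene, antisense, remainder. Clusters join positions of both tables within 50 nt. Shares have Wilson 95% intervals from scipy 1.17.1 (Python 3.11.15). They cover counting error only, not replicate spread or remaining PCR duplicates. The steps were tested on simulated data. The 10 clusters with the highest count in each line and the 10 genes with the most downstream and antisense counts were named. Members, lists and kinds of sequence were chosen with earlier results of these data known. The authors' FDR and extended score columns were not used, since every position without a gene holds an FDR of 1 and no extended score.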

Additional observations from a re-analysis of the deposited data

Results flagged for a closer look

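Positions that the deposited tables assign to no gene but that were left out of the comparisons also held counts. Those inside a GENCODE release 44 gene span on the same strand held 96980 counts in DoHH-2, or 4.77% of all counts, and 8077 in GM01953, or 4.83%. Those on chromosome MT held 736 counts in DoHH-2 and 22 in GM01953. No control library without antibody or cross-linking was analysed here, so these counts stand above the limit that a count of 0 allows and not above a measured background.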

How the results depend on the processing

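Each cell line had 1 pooled table, which limits every value here. No paired analysis was possible because no column carries a replicate number, and leaving out single replicates could not be run. The cause of a change was not tested unless the setting itself makes it. Under other settings 14 values stayed close to the reported one, 57 moved and 1 changed direction. This count sets each value against its own reported value, so turns in the order of the lines are named separately below. All values are DoHH-2 first, then GM01953.

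The share of all counts outside genes was 4.37% and 11.7% at positions of 2 or more counts, 4.28% and 9.38% with gene spans widened by 1 kb, 3.27% and 7.91% with 5 kb, 3.40% and 7.27% outside genes on both strands, 5.27% and 10.9% without the highest cluster and 3.51% and 5.61% for words of 1 copy. Without contigs it was 5.21% in DoHH-2. GM01953 stayed higher in each. At the depth of GM01953, DoHH-2 would hold 7546 positions. With positions of 2 or more counts there were 5249 and 1739 clusters. Clusters of 20 or more counts held 26.1% and 41.3% of the counts when joined within 10 nt, and 33.9% and 43.3% within 200 nt.

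With contigs in the total, the share within 1 kb downstream was 13.6% and 8.94%. It was 28.2% and 18.3% within 5 kb, 4.67% and 1.96% for protein-coding genes, 14.2% and 11.1% by number of positions, and 14.1% in DoHH-2 without the highest cluster. The antisense share, 37.8% and 34.7%, was 28.7% and 25.8% for protein-coding genes, 42.1% and 41.8% by number of positions and 39.1% and 35.6% without the highest cluster.

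Sequence present more than once held 50.3% and 65.8% of the counts with words of 21 nt. With 41 nt it held 13.6% and 5.54%, which turns the order of the lines. It held 29.98% and 43.9% with words centred on the position, and 24.3% and 44.6% by number of positions. Called clusters numbered 514 and 403 with a minimum of 10 counts and 51 and 98 with 50, and the first turns the order of the lines.

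Settings added after seeing the data moved runs of A to 15.8% and 36.1% for 10 or more A and to 13.3% and 30.4% for 20 or more. tRNA genes held 19.5% and 31.2% at positions of 2 or more counts and 9.88% and 37.9% without runs of A. Without regions of 100 or more positions the antisense share was 39.1% in DoHH-2. Without runs of A, 137 clusters were higher in DoHH-2 and 115 in GM01953, which turns their order. With counts under 3 set to 3, clusters higher in DoHH-2 fell to 29. Without its highest cluster, ribosomal RNA sequence turned from 1.63 to 0.997 times the CPM of GM01953. Without the site opposite to MYOCOS, the antisense share of the downstream, antisense and remaining kinds was 44.1% in GM01953.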
